A study of Mus musculus with 49 samples.

Results

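The genes described here build, decorate and travel along microtubules: tubulins, stathmins, classical microtubule-associated proteins, kinesins with their light chains, and subunits of cytoplasmic dynein. They were chosen by symbol, from probe sets that the platform annotation pairs with 1 gene symbol, and tau itself (Mapt) was left out. The rule found 60 genes on 103 probe sets, out of 11807 genes on 18003 probe sets. Each gene was represented by its probe set of highest mean over all arrays. The 60 genes comprised 5 alpha tubulins, 6 beta tubulins, 4 genes of gamma tubulin and its complex, 4 stathmins, 6 microtubule-associated proteins, 6 kinesin-1 heavy and light chains, 20 other kinesins and 9 dynein subunits.

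RNA came from cell layers that were laser-captured in 3 hippocampal subfields, CA1, CA3 and the dentate gyrus (DG), of 17 female mice aged 6.1 months, hybridised to 49 arrays. The DN mice (genotype Dbl Neg) carried neither transgene, the tTA mice (TTA alone) carried the CaMKIIα-tTA transactivator, kept in a 129S6 line, and the rTg4510 mice (Tg4510) carried the same transactivator plus TRE-htau from an FVB/N line, which encodes mutant human tau. All 3 genotypes came from crosses of these lines. The CaMKIIα promoter is active mainly in excitatory forebrain neurons, so rTg4510 and tTA mice share the transactivator and differ by the tau transgene, whereas DN mice lack both. CA1 was measured in 6 DN, 5 tTA and 5 rTg4510 mice, CA3 in 5 DN, 5 tTA and 6 rTg4510 mice, and DG in 6 DN, 5 tTA and 6 rTg4510 mice. Animals are named as the labels number them, and the numbers of DN animals (mouse4797 to mouse4886) lay apart from those of the tTA (mouse4570 to mouse4637) and rTg4510 animals (mouse4535 to mouse4666), so a difference between DN and the other genotypes cannot be told apart from one between litters or rounds of work that follow these numbers.

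Microtubules are polymers of alpha and beta tubulin, nucleated by gamma tubulin. Stathmins bind free tubulin and favour disassembly, while microtubule-associated proteins such as MAP2 and MAP4 bind along the polymer. Kinesins carry most of their cargo towards the plus end, which in axons is the outward direction, and cytoplasmic dynein carries cargo back towards the cell body. Tau is itself a microtubule-associated protein of axons, and the long projections of hippocampal pyramidal and granule neurons depend on this transport.

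Values were log2 signals from robust multi-array averaging (RMA). A difference of 1 is a doubling, and levels of different probe sets are not comparable with each other. Group means below 5.04, the median level over all probe sets, are called dim here, and 19 of the 60 genes were dim in all 9 groups, among them Tuba1c, Tuba8, Tubb6, Klc3 and the 7 kinesins of cell division. A further 36 genes were dim in no group. The captured layers carried their markers. In DN mice the CA1 marker Wfs1 averaged 12.2 in CA1 and at most 8.79 elsewhere, the CA3 marker Bok averaged 9.72 in CA3 and at most 7.55 elsewhere, and the granule cell marker Dsp averaged 10.9 in DG and at most 6.66 elsewhere. A gene was called at a Benjamini-Hochberg adjusted p below 0.05 in limma, adjusted over all 22626 probe sets tested.

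The first question was how these genes are distributed over the 3 cell layers without any transgene. CA3 stood above DG for a large share of them. In DN mice 28 of the 60 genes were higher in CA3 than in DG and 1 was lower, against 11.6% of all genes higher and 10.7% lower. The median log2 difference over the 60 genes was 0.26, and it was 0.02 over all genes. Among the 38 of the 60 genes whose mean over all arrays was not dim, 25 were higher (65.8%), against 18.8% of the 6148 genes that were not dim. General neuronal markers moved the same way, since 5 of 10 were higher in CA3 than in DG. Their median was 0.317, against 0.26 for the 60 genes and 0.44 for the 38 that were not dim. Of 12 oligodendrocyte markers 2 were higher (median 0.364). The part of both kinds of marker in the result was not tested. In such bulk tissue, more cells of a type and more RNA per cell cannot be told apart.

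Stmn2, a stathmin enriched in growing and regenerating axons, differed most between layers. Its log2 values in DN mice were 9.66, 9.80, 9.86, 9.94 and 10.04 in CA3, ran from 8.18 to 8.70 in CA1 (median 8.43) and from 6.99 to 7.54 in DG (median 7.05). The 3 layers did not overlap. CA3 exceeded DG by 2.68 ± 0.15 (standard error; 6.42-fold, adjusted p = 6.8e-19 in limma) and CA1 exceeded DG by 1.24 ± 0.14 (adjusted p = 1.9e-09). Stmn1, the stathmin most associated with proliferating and immature cells, ran the other way, with 10.97 to 11.20 in DG (median 11.12), 10.39 to 10.72 in CA1 (median 10.51) and 10.51, 10.61, 10.62, 10.73 and 10.90 in CA3. All DG arrays were above all CA1 and CA3 arrays, and the differences from DG were -0.59 ± 0.07 in CA1 (adjusted p = 3.85e-09) and -0.43 ± 0.07 in CA3 (adjusted p = 7.7e-06). Stmn3 was higher in CA3 than in DG by 0.63 ± 0.09 (adjusted p = 3.3e-07). Stmn4 was 0.41 ± 0.09 higher in CA1 than in CA3 (adjusted p = 0.0011), and it was not called between CA1 and DG.

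**Figure D1:**
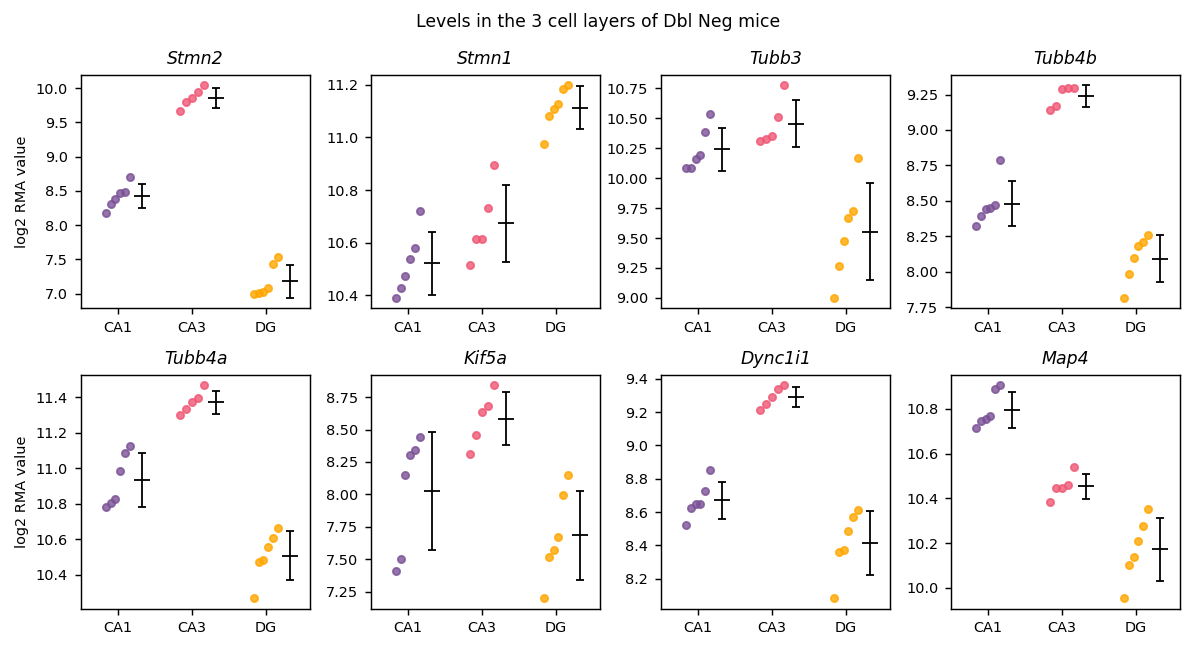
Log2 RMA values of 8 genes (y axis, a range per panel) in the CA1, CA3 and DG cell layers of Dbl Neg mice (x axis). Each point is 1 array, and the bar beside it gives the mean ± SD of 6, 5 and 6 arrays. Stmn2, Tubb4b, Tubb4a and Dync1i1 are highest in CA3, Stmn1 in DG and Map4 in CA1.

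Of the 6 beta tubulins 5 were higher in CA3 than in DG. Tubb4b read 9.14, 9.17, 9.29, 9.29 and 9.30 in CA3 against 7.82 to 8.26 in DG (median 8.14), a difference of 1.15 ± 0.14 (2.22-fold, adjusted p = 6.5e-09). CA1 lay between them at 8.33 to 8.79 (median 8.45) and overlapped neither layer. Tubb3, the neuronal beta tubulin, read 10.31, 10.33, 10.35, 10.51 and 10.78 in CA3 against 9.0 to 10.17 in DG (median 9.57) and differed by 0.91 ± 0.16 (adjusted p = 9.8e-06). Its CA1 arrays, 10.09 to 10.53 with a median of 10.18, overlapped both, and the difference between CA1 and CA3 did not pass (-0.22, adjusted p = 0.46).

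Tubb4a differed between CA3 and DG by 0.87 ± 0.12 (adjusted p = 1.1e-07) and Tubb5 by 0.58 ± 0.09 (adjusted p = 1.9e-06). Among alpha tubulins, Tuba8 stood out on a dim probe set, with 4.10, 4.29, 4.37, 4.77 and 4.86 in CA3, 3.13 to 3.54 in DG (median 3.38) and 2.98 to 3.66 in CA1 (median 3.43). Only CA3 was separate from the other layers for Tuba8, and it exceeded DG by 1.11 ± 0.15 (adjusted p = 7.9e-08). The abundant neuronal alpha tubulin Tuba1a varied little, with differences of -0.21 ± 0.04 between CA1 and CA3 (adjusted p = 0.00014) and -0.13 ± 0.04 between CA1 and DG (adjusted p = 0.013). Tuba1a, Tuba1b, Tuba1c, Tuba3a and Tubb2a were read by probe sets of the x or s type, which can bind near-identical tubulin transcripts, so these values may mix genes.

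Some of the motor genes were higher in CA3 as well. Of the kinesins, 4 of 6 kinesin-1 genes, 2 of 4 kinesin-2, 2 of 5 kinesin-3 and 2 of 4 others were higher in CA3 than in DG. Kif5a, a neuronal kinesin-1 heavy chain, read 8.31, 8.46, 8.63, 8.68 and 8.84 in CA3 and 7.2 to 8.15 in DG (median 7.62), and the difference was 0.90 ± 0.20 (adjusted p = 0.00042). Klc1, a kinesin-1 light chain, differed by 0.72 ± 0.13 (adjusted p = 1.6e-05), Klc3, on a dim probe set, by 0.68 ± 0.19 (adjusted p = 0.0053), and Kif5c by 0.31 ± 0.11 (adjusted p = 0.025). Kif1a and Kif1b, which carry synaptic vesicle precursors and mitochondria, differed by 0.57 ± 0.15 (adjusted p = 0.0036) and 0.62 ± 0.12 (adjusted p = 9.0e-05). None of the 7 kinesins of cell division differed between any pair of layers in DN mice.

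Among dynein subunits, 3 of 4 heavy, intermediate and light intermediate chains and 3 of 5 light chains were higher in CA3 than in DG. Dync1i1, the neuronal dynein intermediate chain, read 9.21, 9.25, 9.29, 9.34 and 9.36 in CA3, 8.52 to 8.85 in CA1 (median 8.65) and 8.08 to 8.62 in DG (median 8.43). CA3 was separate from both other layers, 0.87 ± 0.14 above DG (adjusted p = 4.7e-06), and CA1 differed from it by -0.62 ± 0.14 (adjusted p = 0.0014). The heavy chain Dync1h1 was 0.63 ± 0.18 higher in CA3 than in DG (adjusted p = 0.0066) and the light chain Dynlt3 0.68 ± 0.10 higher (adjusted p = 1.2e-06). Of the microtubule-associated proteins, Map1lc3a, the LC3 protein that coats autophagosomes, was 0.77 ± 0.12 higher in CA3 than in DG (adjusted p = 3.1e-06).

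Some of the smaller CA3 to DG calls were lost when a mouse was left out. Without DN mouse4866 the difference of Dync1h1 was 0.52 (adjusted p = 0.0695), that of Kif3c 0.49 (adjusted p = 0.0771) and that of Dynlrb1 0.18 (adjusted p = 0.136). Kif5c lost its call without mouse4825, mouse4866 or mouse4883, with differences of 0.30 to 0.32. Tubb2a, at 0.16 ± 0.06 (adjusted p = 0.039), lost its call without any of mouse4797, mouse4825, mouse4866 and mouse4883, and after a second quantile normalization, where it read 0.08. Kif2a (0.39) lost its call without mouse4797, mouse4806, mouse4825 or mouse4886 (0.33 to 0.40) and Dync1li1 (0.49) without any but mouse4825 (0.45 to 0.50). Klc1 was read by 3 probe sets, of which one, dimmer than the others, went the opposite way between CA3 and DG (-0.54 ± 0.16, adjusted p = 0.011).

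Map4, a microtubule-associated protein of many cell types, Map2, of dendrites, and Stmn4, given above, were higher in CA1 than in CA3. Map4 read 10.71 to 10.90 in CA1 (median 10.76), 10.38, 10.45, 10.45, 10.46 and 10.54 in CA3, and 9.95 to 10.35 in DG (median 10.17), with no overlap between the layers. Against CA3 the CA1 layer was higher by 0.34 ± 0.06 for Map4 (adjusted p = 9.1e-05) and by 0.50 ± 0.13 for Map2 (adjusted p = 0.0066), the latter call being lost without DN mouse4886 (0.38, adjusted p = 0.0849). In all, 3 of the 60 genes were higher and 13 lower in CA1 than in CA3, against 6.73% and 7.08% of all genes, and the median difference was -0.15 against -0.02. The 13 lower genes were Stmn2 (-1.44 ± 0.15), Tuba8 (-1.08), Tubb4b (-0.76), Tubb5 (-0.74), Klc3 (-0.65), Dync1i1 (-0.62), Klc1 (-0.51), Tubb4a (-0.44), Dynlt3 (-0.44), Tuba1b (-0.41), Stmn3 (-0.32), Tubb2a (-0.21) and Tuba1a (-0.21). The Klc3 call was lost without DN mouse4825 (-0.62, adjusted p = 0.059) or mouse4866 (-0.62, adjusted p = 0.0529). Oligodendrocyte markers were lower in the same comparison (6 of 12, median -0.677), and their part was not tested.

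CA1 stood above DG for 12 of the 60 genes and below it for 2, against 9.44% and 8.96% of all genes. After Stmn2, the largest differences were those of Tubb3 (0.69 ± 0.15, adjusted p = 0.00038), Map4 (0.62 ± 0.06, adjusted p = 3.1e-11) and Map1lc3a (0.61 ± 0.12, adjusted p = 8.9e-05). The calls of Dync1h1 (0.50), Dync1li1 (0.48), Kif3a (0.48), Tubb4b (0.39), Stmn3 (0.31) and Tuba1a (-0.13) were each lost in at least 1 of the 6 fits that left out a DN mouse. For Dync1h1 these were the fits without mouse4806, mouse4825, mouse4866, mouse4883 or mouse4886 (0.42 to 0.53), for Dync1li1 those without mouse4825, mouse4883 or mouse4886 (0.41 to 0.48), for Kif3a that without mouse4886 (0.40), for Tubb4b those without mouse4825, mouse4866 or mouse4886 (0.27 to 0.41), for Stmn3 those without mouse4797 or mouse4883 (0.25 in both), and for Tuba1a those without mouse4806 or mouse4825 (-0.11 and -0.12).

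The tTA and rTg4510 mice are other animals and were used to see whether the layer pattern recurred. Between CA3 and DG, 23 of the 60 genes were higher and 2 lower in tTA mice (9.89% and 8.76% of all genes), and 23 were higher and 1 lower in rTg4510 mice (10.9% and 9.18% of all genes). Of the 28 genes higher in CA3 in DN mice, 22 were also called in tTA mice and 20 in rTg4510 mice, and 28 and 27 had the same sign. Recurrence was not counted over all genes, for this or the other pairs of layers. Such counts therefore do not show whether these genes recur more than others. The 16 called in all 3 genotypes were Tuba1b, Tuba3a, Tuba8, Tubb3, Tubb4a, Tubb4b, Tubb5, Stmn2, Stmn3, Map1lc3a, Map4, Kif1b, Klc1, Klc3, Dync1i1 and Dynlt3. Among these, leaving out 1 mouse ended some calls in the smaller sets. In tTA mice this held for Klc3 without mouse4592 (0.56), mouse4626 (0.20) or mouse4637 (0.58), Map4 without mouse4592, mouse4626 or mouse4637 (0.20 to 0.21), Tuba8 without mouse4570 (0.45) or mouse4580 (0.46), Dynlt3 without mouse4570 or mouse4637 (0.31 in both), Klc1 without mouse4626 (0.42) and Tuba3a without mouse4570 (0.32). In rTg4510 mice it held for Klc3 without mouse4621 (0.48) or mouse4666 (0.53), Dync1i1 (0.40) and Kif1b (0.31) without mouse4666, Tuba3a without mouse4549 (0.41) and Map1lc3a without mouse4653 (0.27). Klc1 lost its call in both genotypes when its probe sets were averaged (0.15 and 0.06), and in rTg4510 mice its probe sets were called in opposite directions. Stmn2 differed by 1.87 ± 0.15 in tTA mice and by 2.08 ± 0.14 in rTg4510 mice. Stmn1 was lower in CA3 in all 3 genotypes (-0.24 ± 0.08 in tTA mice, adjusted p = 0.023, a call lost without mouse4580 or mouse4626, with -0.22 in both, and -0.46 ± 0.07 in rTg4510 mice, adjusted p = 1.5e-06).

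**Figure D2:**
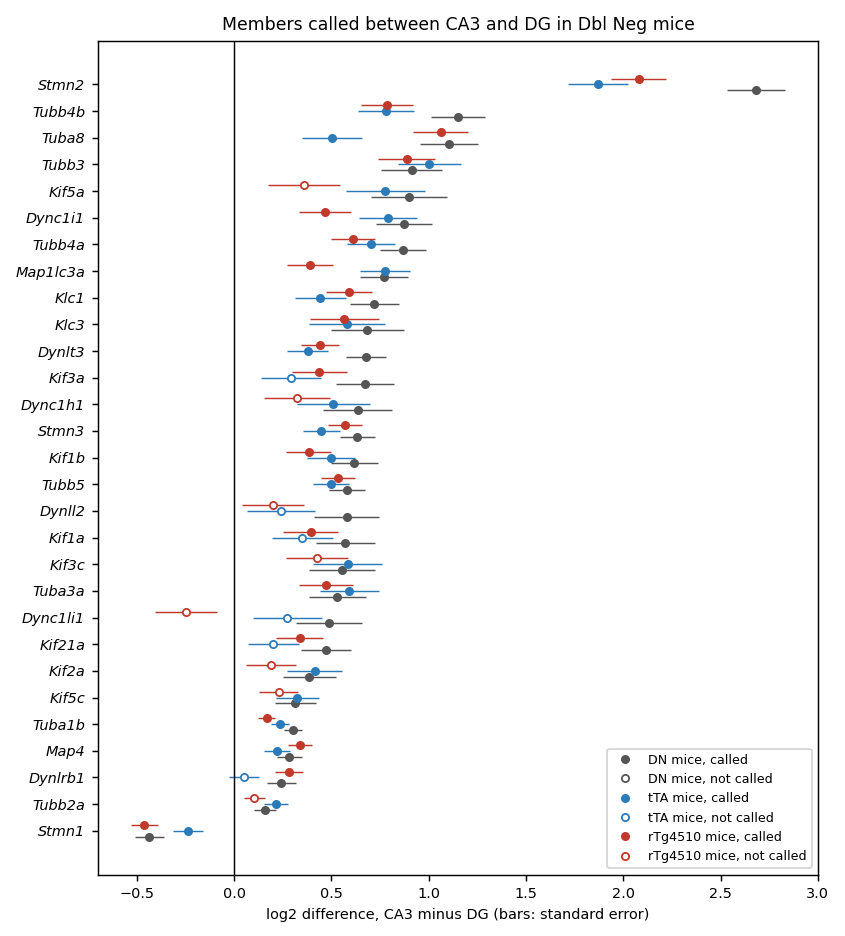
Log2 difference between CA3 and DG (x axis, CA3 minus DG) for the 29 genes called in Dbl Neg mice (y axis), in DN, tTA and rTg4510 mice. Bars are standard errors, and filled points passed the adjusted p threshold in that genotype. 28 genes lie to the right of 0 in DN and tTA mice, with Stmn2 farthest out, and Stmn1 lies to the left in all 3 genotypes.

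Between CA1 and CA3, 1 gene was higher and 12 lower in tTA mice (6.49% and 6.91% of all genes), and 2 were higher and 14 lower in rTg4510 mice (8.48% and 7.94% of all genes). All 13 genes lower in CA1 in DN mice had the same sign in the other genotypes, and 8 were called in all 3: Tuba1b, Tubb2a, Tubb4b, Tubb5, Stmn2, Klc1, Klc3 and Dync1i1. Of these, Tubb4b lost its call without tTA mouse4626 (-0.45) or rTg4510 mouse4535 (-0.36), and Tubb2a without rTg4510 mouse4535 (-0.15) or mouse4666 (-0.19). For Klc1, another probe set was called in the opposite direction in rTg4510 mice. The 3 genes higher in CA1 in DN mice behaved otherwise in rTg4510 mice. Map4 was lower in CA1 there (-0.23 ± 0.06, adjusted p = 0.0087; without mouse4600 -0.19, adjusted p = 0.0711), and Map2 (-0.11, adjusted p = 0.679) and Stmn4 (-0.03, adjusted p = 0.907) were not called. Between CA1 and DG, 8 genes were higher and 2 lower in tTA mice (8.8% and 8.12% of all genes), 6 were higher and 2 lower in rTg4510 mice (7.2% and 6.45% of all genes), and Stmn2, Stmn3 and Tubb3 were higher in CA1 in all 3 genotypes. In tTA mice the Stmn2 call was lost without mouse4570 (0.42) and that of Stmn3 in every fit that left out a mouse but that without mouse4592 (0.22 to 0.26).

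Promoters of 5 genes are shown because 4 of them (Tubb4b, Tuba8, Tubb3 and Dync1i1) are those of largest CA3 to DG difference, among the genes called in all 3 genotypes, for which a sequence was at hand, and Dync1h1 had the largest fall between tTA and DN mice in CA1, given further on. They are RefSeq sequences of build GRCm38.p6, 250 bases before to 50 after the start, printed 5′ to 3′ on the gene's strand. They cover chr2:25224653-25224952 (minus strand) for Tubb4b, chr6:121210484-121210783 (plus) for Tuba8, chr8:123411303-123411602 (plus) for Tubb3, chr6:5725389-5725688 (plus) for Dync1i1 and chr12:110601145-110601444 (plus) for Dync1h1. Capitals mark the GC box GGGCGG, the CCAAT box CCAAT and the TATA box TATAAA on either strand, and no base lay in more than 1 kind of motif.
Tubb4b: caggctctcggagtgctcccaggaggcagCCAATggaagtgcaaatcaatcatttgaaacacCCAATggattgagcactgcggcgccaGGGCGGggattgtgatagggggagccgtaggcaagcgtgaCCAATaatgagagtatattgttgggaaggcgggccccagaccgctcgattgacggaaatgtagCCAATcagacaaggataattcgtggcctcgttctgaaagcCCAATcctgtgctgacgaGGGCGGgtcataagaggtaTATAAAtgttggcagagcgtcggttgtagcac
Tuba8: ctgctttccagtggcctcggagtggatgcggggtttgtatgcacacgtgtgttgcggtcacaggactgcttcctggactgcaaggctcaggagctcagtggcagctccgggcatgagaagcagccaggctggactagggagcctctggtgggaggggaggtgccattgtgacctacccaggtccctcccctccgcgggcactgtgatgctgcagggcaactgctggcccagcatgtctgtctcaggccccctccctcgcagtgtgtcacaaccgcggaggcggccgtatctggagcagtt
Tubb3: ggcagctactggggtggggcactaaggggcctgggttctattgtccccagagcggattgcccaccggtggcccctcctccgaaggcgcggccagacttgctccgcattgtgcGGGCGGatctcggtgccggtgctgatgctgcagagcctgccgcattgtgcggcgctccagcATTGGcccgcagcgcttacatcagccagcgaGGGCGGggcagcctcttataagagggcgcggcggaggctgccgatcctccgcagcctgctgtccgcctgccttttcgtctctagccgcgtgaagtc
Dync1i1: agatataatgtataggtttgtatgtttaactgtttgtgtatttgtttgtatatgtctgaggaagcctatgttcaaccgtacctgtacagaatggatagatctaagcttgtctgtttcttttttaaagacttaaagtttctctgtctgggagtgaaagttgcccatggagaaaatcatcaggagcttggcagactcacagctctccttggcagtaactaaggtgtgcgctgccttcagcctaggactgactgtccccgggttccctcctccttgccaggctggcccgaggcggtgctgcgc
Dync1h1: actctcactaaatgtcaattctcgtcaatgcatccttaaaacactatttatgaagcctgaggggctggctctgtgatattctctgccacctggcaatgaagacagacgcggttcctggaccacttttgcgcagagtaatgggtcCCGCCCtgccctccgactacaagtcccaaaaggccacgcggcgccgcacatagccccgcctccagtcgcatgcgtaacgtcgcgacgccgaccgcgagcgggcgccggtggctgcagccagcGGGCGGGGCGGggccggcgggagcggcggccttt
The Tubb4b promoter held 2 GC boxes, 5 CCAAT boxes and 1 TATA box, that of Tubb3 2 GC boxes and 1 CCAAT box, and that of Dync1h1 3 GC boxes. None of the 3 motifs was met in the windows of Tuba8 and Dync1i1. Sequences matched 48 of the 60 genes, with 55 promoters, of which 70.9% held a GC box, 34.5% a CCAAT box and 12.7% a TATA box. Over the 32851 promoters of the same length in the set used, these shares were 35.7%, 37.4% and 13.6%. Promoters of 1 chromosome were left out of both counts.

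The comparison of rTg4510 with tTA mice asks what the tau transgene adds. In CA1, 5 of the 60 genes were higher and 3 lower in rTg4510 mice, against 6.23% and 5.4% of all genes, and the median difference was -0.02 against -0.04. The share of called members was thus near that of all genes. The 5 higher genes were 2 alpha tubulins and 3 dynein subunits, and the 3 lower ones were all microtubule-associated proteins. No beta tubulin, stathmin or kinesin was called.

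Tuba8 read 3.75, 3.76, 3.81, 3.99 and 4.35 in rTg4510 CA1 and 3.01, 3.14, 3.21, 3.30 and 3.43 in tTA CA1, with no overlap. The difference was 0.72 ± 0.14 (1.64-fold, adjusted p = 0.0036), on a dim probe set, and DN mice read 2.98 to 3.66 (median 3.43). Tuba1c, also dim, read 4.29, 4.75, 4.80, 5.02 and 5.61 against 4.08, 4.09, 4.22, 4.28 and 4.42, so that the lowest rTg4510 array lay among the tTA arrays. Its difference was 0.68 ± 0.18 (adjusted p = 0.022), and 0.65 without tTA mouse4580 (adjusted p = 0.0512).

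Dynll2, a dynein light chain also found in myosin V, read 8.09, 8.31, 8.32, 8.38 and 8.53 in rTg4510 CA1 and 7.43, 7.43, 7.87, 7.90 and 7.97 in tTA CA1, without overlap. The difference was 0.60 ± 0.16 (adjusted p = 0.022), and DN arrays, at 7.93 to 8.74 (median 8.25), covered the rTg4510 range. The call was lost without rTg4510 mouse4666 (0.56, adjusted p = 0.0602) or tTA mouse4580 (0.53, adjusted p = 0.0585) or mouse4637 (0.53, adjusted p = 0.0558).

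Dynlt3, a light chain of the Tctex family, read 10.98, 11.10, 11.11, 11.18 and 11.28 against 10.47, 10.62, 10.68, 10.92 and 10.96, with 0.40 ± 0.11 between the means (adjusted p = 0.025). The ranges did not overlap but nearly touched. Its other 2 probe sets rose too, by 0.61 ± 0.10 (adjusted p = 0.0018) and 0.43 ± 0.08 (adjusted p = 0.0035). The call of the brightest probe set was lost without rTg4510 mouse4666 or tTA mouse4580, mouse4592 or mouse4626, with differences of 0.34 to 0.39. Dync1i2, the intermediate chain that most cells use, read 9.06, 9.25, 9.34, 9.36 and 9.38 against 8.79, 8.92, 8.97, 9.01 and 9.11, overlapping at 1 array, and differed by 0.32 ± 0.08 (adjusted p = 0.023). It lost its call without tTA mouse4592 or rTg4510 mouse4535, mouse4653 or mouse4666 (0.27 to 0.30). DN arrays of Dync1i2 read 9.18 to 9.42 (median 9.28), close to those of rTg4510 mice.

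**Figure D3:**
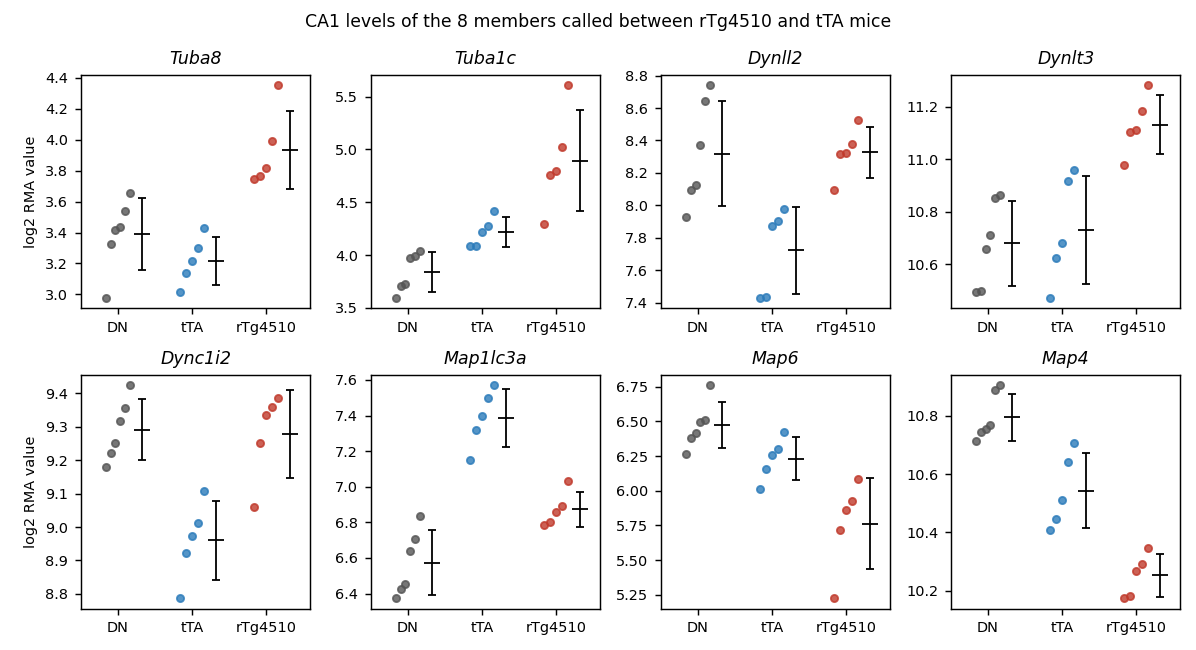
Log2 RMA values in CA1 (y axis, a range per panel) of the 8 genes called between rTg4510 and tTA mice, by genotype (x axis; DN is Dbl Neg). Points are arrays and bars the mean ± SD of 6 DN, 5 tTA and 5 rTg4510 arrays. Tuba8, Dynll2, Dynlt3, Map1lc3a and Map4 show no overlap between tTA and rTg4510, and for Map1lc3a the DN arrays lie below most rTg4510 arrays.

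Map1lc3a read 6.79, 6.80, 6.86, 6.89 and 7.03 in rTg4510 CA1 and 7.15, 7.32, 7.40, 7.50 and 7.57 in tTA CA1, without overlap. The rTg4510 mice differed by -0.51 ± 0.10 (1.43-fold lower, adjusted p = 0.0052). DN mice were lower still, at 6.37 to 6.83 (median 6.55). Map6, which stabilises neuronal microtubules against cold, read 5.22, 5.72, 5.86, 5.93 and 6.08 against 6.01, 6.16, 6.26, 6.30 and 6.43, a difference of -0.47 ± 0.14 (adjusted p = 0.040). The Map6 groups overlapped, and the call was lost in 7 of the 10 fits that left out a mouse: without rTg4510 mouse4549, mouse4653 or mouse4666, or tTA mouse4570, mouse4580, mouse4592 or mouse4626, with differences from -0.49 to -0.33. Map4 read 10.17, 10.18, 10.27, 10.29 and 10.35 against 10.41, 10.45, 10.51, 10.64 and 10.71, without overlap, a difference of -0.29 ± 0.08 (adjusted p = 0.024). Its call was lost without rTg4510 mouse4535 (-0.27) or tTA mouse4592 (-0.25) or mouse4626 (-0.27). With the Actb difference described further on as a covariate, 5 of the 8 genes kept a call, and Dync1i2 (0.26), Map6 (-0.50) and Map4 (-0.29) did not. Over all 22626 probe sets the covariate took the calls from 1360 higher and 1045 lower to 753 and 560.

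Other cell types moved in the same comparison. In rTg4510 CA1, 13 of 19 microglial and 11 of 13 astrocytic markers were higher than in tTA CA1, 5 of 12 oligodendrocyte and 5 of 13 endothelial and mural markers were higher, 7 of 13 interneuron markers were higher and 1 lower, and the 3 CA1 pyramidal markers were all lower, with a median difference of -1.48. The mean over the microglial list ranged from 6.23 to 7.23 in rTg4510 CA1 arrays and from 5.34 to 5.73 in tTA CA1 arrays. The astrocyte list ranged from 8.86 to 9.54 and from 7.83 to 8.41, and the CA1 pyramidal list from 6.73 to 8.23 and from 8.57 to 9.51. The endothelial and mural list ranged from 5.68 to 6.36 and from 5.42 to 5.67, and the oligodendrocyte list, which overlapped, from 6.62 to 7.43 and from 5.90 to 6.79. Their part in the tubulin, dynein and microtubule-associated protein differences was not tested. The 10 general neuronal markers had no call and a median of 0.014.

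Several neuronal genes had small differences in CA1, without a call. Larger ones, which did not pass either, are given below for Map2, Dynll1, Stmn1 and Dync1h1. With so few arrays per group, a missing call does not show that a gene was unchanged. Tuba1a differed by 0.08 (adjusted p = 0.44), Tubb3 by -0.09 (adjusted p = 0.77), Tubb2a by 0.03 (adjusted p = 0.85), Kif1a by -0.06 (adjusted p = 0.88), Kif5a by -0.22 (adjusted p = 0.56), Kif5c by 0.16 (adjusted p = 0.47), Klc1 by -0.04 (adjusted p = 0.92), Map1b by 0.01 (adjusted p = 0.98) and Dync1i1 by -0.03 (adjusted p = 0.95). Of the genes that did not pass, the largest differences were those of Tubg2 (-0.55, adjusted p = 0.20) and Tubb6 (0.48, adjusted p = 0.27), both dim, Kif3c (-0.45, adjusted p = 0.14), Map2 (-0.43, adjusted p = 0.14), Map7 (-0.41, adjusted p = 0.205) and Kif3b (-0.39, adjusted p = 0.15). Smaller were Dynll1 (-0.27, adjusted p = 0.093), Stmn1 (0.26, adjusted p = 0.10) and Dync1h1 (0.25, adjusted p = 0.45). Differences of the 4 stathmins ran from -0.125 to 0.263.

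In CA3 limma called none of the 60 genes between rTg4510 and tTA mice, against 0.618% of all genes higher and 0.542% lower. At an unadjusted p below 0.05 there were 5 (14.7% of all genes), and the least significant difference test of the methods gave 0. The smallest adjusted p belonged to Tubb6 (0.72 ± 0.20, adjusted p = 0.089), Kif3b (0.46 ± 0.14, adjusted p = 0.12) and Kif21a (0.34 ± 0.11, adjusted p = 0.17). DG likewise had no call in limma, against 0.423% of all genes higher and 0.373% lower, with 6 genes at an unadjusted p below 0.05 (15.1% of all genes) and 0 by the least significant difference test. The nearest were Klc4 (-0.63 ± 0.15, adjusted p = 0.059), Dync1li1 (0.51 ± 0.16, adjusted p = 0.125) and Dynlrb1 (-0.24 ± 0.09, adjusted p = 0.19). Klc4 read 4.77 to 5.17 in rTg4510 DG (median 4.98) and 5.31, 5.37, 5.74, 5.81 and 5.84 in tTA DG, without overlap, on a probe set that was dim in rTg4510 DG.

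**Figure D4:**
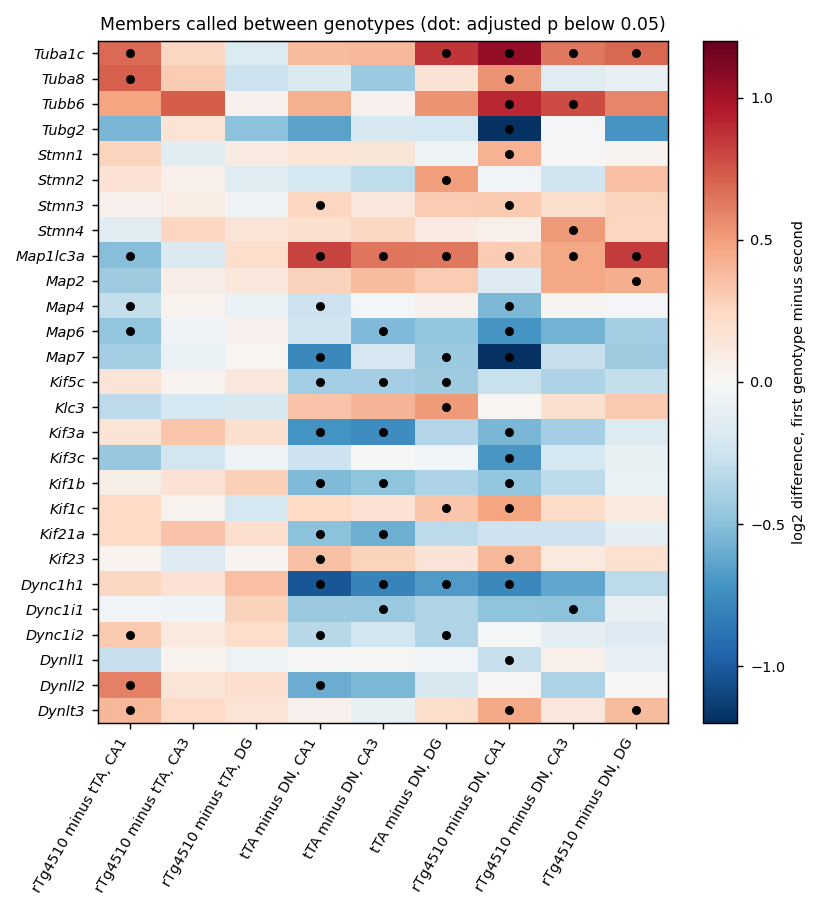
Log2 difference between genotypes (colour, first genotype minus second) for the 27 genes called in at least 1 of 9 genotype comparisons (rows), in each comparison and subfield (columns). Dots mark an adjusted p below 0.05. Calls between rTg4510 and tTA occur in CA1 only, and Map1lc3a (higher) and Dync1h1 and Kif5c (lower) carry dots in all 3 subfields between tTA and DN.

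Whether the tau response differed between subfields was tested directly in a model of all 49 arrays with the mouse as a random block. Between the responses in CA1 and CA3, 1 gene was higher and 2 lower (2.53% and 1.78% of all genes): Stmn1 (0.39 ± 0.11, adjusted p = 0.028), Kif3b (-0.84 ± 0.22, adjusted p = 0.024) and Map4 (-0.33 ± 0.09, adjusted p = 0.032). The Stmn1 responses were 0.26 in CA1 and -0.12 in CA3, neither of which was called alone. The Kif3b value held for 1 of its 4 probe sets, since the others gave 0.07, 0.14 and -0.38 with adjusted p of 0.563 or more. Between CA1 and DG, 2 genes were higher and 1 lower (3.61% and 2.53% of all genes): Tuba8 (0.97 ± 0.21, adjusted p = 0.0036), Tuba1c (0.84 ± 0.22, adjusted p = 0.013) and Map1lc3a (-0.73 ± 0.18, adjusted p = 0.0089). In DG, rTg4510 and tTA mice read 2.94 to 3.80 (median 3.21) and 3.24, 3.49, 3.53, 3.61 and 3.75 for Tuba8.

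Microglial and astrocytic markers differed in the same 2 tests, with 3 of 19 and 7 of 13 higher for CA1 minus CA3 and 13 of 19 and 10 of 13 higher for CA1 minus DG, and their part was not tested. Several of these gene calls were lost without 1 mouse. They were those of Stmn1 without rTg4510 mouse4653 or mouse4666 or tTA mouse4626 or mouse4637 (0.32 to 0.36), Kif3b without rTg4510 mouse4535 or tTA mouse4592 or mouse4637 (-0.77 to -0.72), Map4 without rTg4510 mouse4600, mouse4621, mouse4653 or mouse4666 or tTA mouse4570, mouse4592 or mouse4626 (-0.35 to -0.29), and Tuba1c without rTg4510 mouse4535 (0.65) or tTA mouse4580 (0.73). Without the mouse block, Stmn1 (adjusted p = 0.0554) and Map4 (adjusted p = 0.0558) also missed the threshold.

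The transactivator alone was compared with no transgene. Relative to DN mice, tTA mice had 3 genes higher and 9 lower in CA1 (7.94% and 8.52% of all genes), 1 higher and 7 lower in CA3 (4.41% and 4.59%), and 5 higher and 4 lower in DG (7.98% and 9.49%). The medians were -0.04, -0.09 and -0.01, against 0.06, 0.04 and 0.03 over all genes. Among the genes that were not dim, 23.7% of the 38 members were lower in CA1, 18.4% in CA3 and 10.5% in DG, against 14.7%, 8.18% and 16.2% of 6148 genes. The shares that were higher were 5.26%, 2.63% and 5.26%, against 10.1%, 7.11% and 11.5%. The values of tTA mice served here and in the comparison above, so the comparisons are not independent.

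Dync1h1, the motor subunit of dynein, was lower in all 3 subfields. Its CA1 values were 8.28, 8.40, 8.50, 8.61 and 8.72 in tTA mice and 9.0 to 9.83 (median 9.64) in DN mice, without overlap, a difference of -1.03 ± 0.18 (2.04-fold, adjusted p = 0.0016). CA3 read 8.56, 8.68, 8.98, 9.02 and 9.07 against 9.30, 9.60, 9.68, 9.73 and 10.01 (-0.80 ± 0.23, adjusted p = 0.036). DG read 7.95, 8.24, 8.46, 8.49 and 8.61 against 8.85 to 9.24 with a median of 8.99 (-0.68 ± 0.16, adjusted p = 0.0085). The tTA and DN arrays were apart in each layer. In rTg4510 mice, Dync1h1 varied between animals. In all 3 layers mouse4535 and mouse4549 read 8.28 to 8.49 and mouse4600 and mouse4653 read 9.02 to 9.71, while mouse4621, with no CA1 array, read 9.32 in CA3 and 8.94 in DG. The CA1, CA3 and DG arrays of mouse4666 read 8.65, 9.13 and 8.19.

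Kif5c, a neuronal kinesin-1 heavy chain, was lower in tTA mice too, with -0.42 ± 0.12 in CA1 (adjusted p = 0.022), -0.41 ± 0.12 in CA3 (adjusted p = 0.037) and -0.42 ± 0.12 in DG (adjusted p = 0.023). Map1lc3a rose in all 3, by 0.81 ± 0.10 in CA1 (1.76-fold, adjusted p = 8.7e-05), 0.64 ± 0.13 in CA3 (adjusted p = 0.0056) and 0.63 ± 0.16 in DG (adjusted p = 0.011). Map1lc3a arrays of tTA mice (7.15 to 7.57 in CA1, 7.02 to 7.81 in CA3, 6.35 to 7.06 in DG) all lay above those of DN mice (6.37 to 6.83, 6.57 to 6.85 and 5.54 to 6.34). These 3 genes were the ones called in every subfield. Map7, which recruits kinesin-1 to microtubules, differed by -0.78 ± 0.18 in CA1 (adjusted p = 0.010), by -0.45 ± 0.14 in DG (adjusted p = 0.034) and by -0.20 in CA3, where it was not called.

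**Figure D5:**
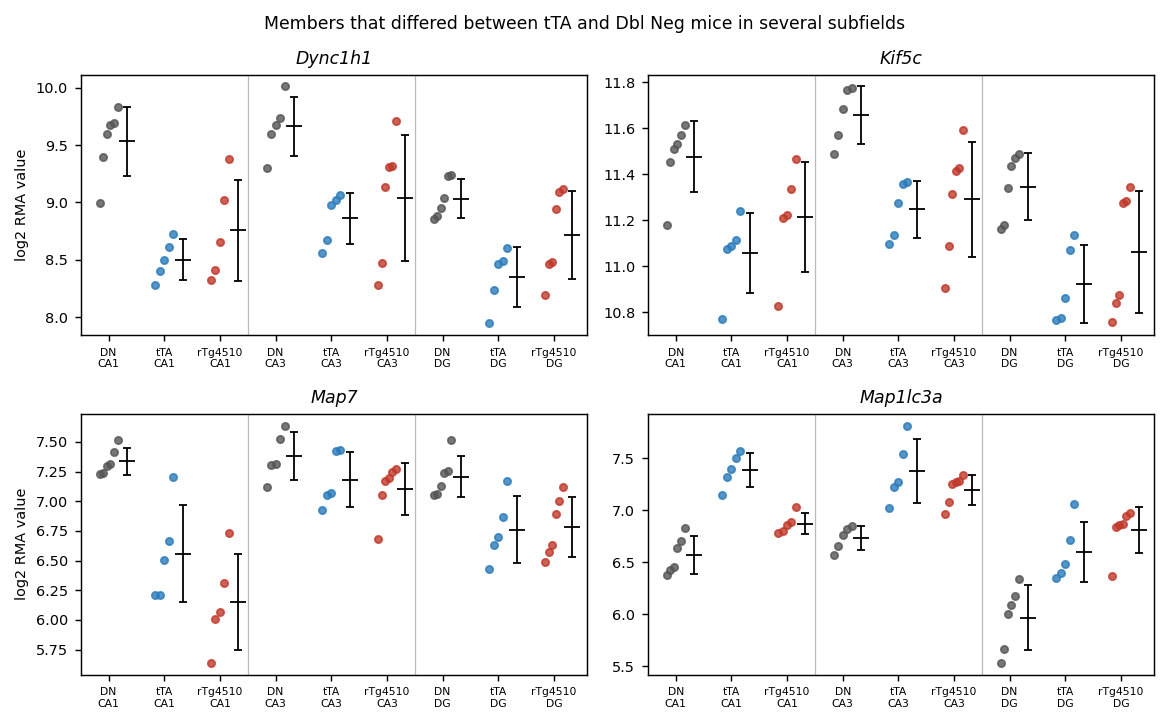
Log2 RMA values (y axis) of Dync1h1, Kif5c, Map7 and Map1lc3a in the 9 groups (x axis, genotype above subfield; DN is Dbl Neg), with 1 point per array and bars for the mean ± SD of 5 or 6 arrays. In tTA mice Dync1h1 lies below and Map1lc3a above the DN arrays in each subfield, and rTg4510 arrays of Dync1h1 and Kif5c spread widely.

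Further genes lower in tTA mice were Kif3a, a kinesin-2 motor (-0.72 ± 0.14 in CA1 and -0.74 ± 0.13 in CA3), Kif1b (-0.53 and -0.49 in the same layers), Kif21a (-0.49 and -0.59), Dync1i2 (-0.33 in CA1 and -0.36 in DG), Dynll2 and Map4 in CA1 (-0.59 and -0.25), and Map6 and Dync1i1 in CA3 (-0.53 and -0.45). Higher were Kif23 (0.35) and Stmn3 (0.26) in CA1, and Tuba1c (0.85 ± 0.16), Klc3 (0.51), Stmn2 (0.50 ± 0.13, adjusted p = 0.013) and Kif1c (0.33) in DG, of which Kif23, Tuba1c, Klc3 and Kif1c were dim. Whether the response in DG differed from that in the pyramidal layers was tested too. Against CA1 none of the 60 genes was called in limma (1.11% of all genes higher and 0.728% lower; 6 members at an unadjusted p below 0.05, 12.8% of all genes), with Stmn2 (0.71 ± 0.21, adjusted p = 0.072), Map4 (0.30 ± 0.09, adjusted p = 0.076) and Kif20a (0.81 ± 0.27, adjusted p = 0.127) nearest. Against CA3, Stmn2 alone was called (0.81 ± 0.21, adjusted p = 0.040; 0.635% of all genes higher, 0.796% lower). The Stmn2 call was lost in 9 of the 11 fits that left out a mouse, all but those without DN mouse4806 or tTA mouse4570 (0.73 to 0.87 where lost), and without the mouse block (adjusted p = 0.0807).

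A sign of RNA quality moved with genotype. The difference between the 3′ and 5′ control probe sets of Actb averaged -0.37, -0.45 and -0.30 in CA1, CA3 and DG of DN mice, -0.70, -0.64 and -0.61 in tTA mice, and -0.48, -0.63 and -0.52 in rTg4510 mice. CA3 thus averaged below DG in each genotype, with overlapping ranges. The comparisons between layers were not refitted with this Actb difference. With this difference as a covariate, added after the data had been seen, tTA mice differed from DN mice in 1 of the 60 genes in CA1 (Map1lc3a, 0.67, adjusted p = 0.0086), in 5 in CA3 and in 1 in DG (Tuba1c, 1.0, adjusted p = 0.012), in place of 12, 8 and 9. Over all 22626 probe sets the covariate took the calls from 1653 higher and 2003 lower to 295 and 571 in CA1. In CA3 it took them from 932 and 1125 to 584 and 499, and in DG from 1633 and 2136 to 495 and 770. Dync1h1 then read -0.69 in CA1 (adjusted p = 0.0811), -0.67 in CA3 (adjusted p = 0.143) and -0.53 in DG (adjusted p = 0.173), and Kif5c -0.29, -0.35 and -0.26. Other differences that lost their call in CA1 were about as large with the covariate, namely Kif3a (-0.71), Dynll2 (-0.69), Kif21a (-0.51) and Map4 (-0.26), while those of Map7 (-0.68), Kif1b (-0.44) and Dync1i2 (-0.25) were smaller. Glial markers were also higher in tTA than in DN mice. In CA1, CA3 and DG, 7, 10 and 12 of 19 microglial and 7, 9 and 12 of 13 astrocytic markers were called. The general neuronal list averaged lower in tTA than in DN mice, at 10.612 against 10.864 in CA1, where the arrays did not overlap. In CA3 it averaged 10.828 against 11.002 and in DG 10.610 against 10.688, with overlap. In DG the interneuron list averaged 7.101 against 6.624, without overlap, and the granule cell list 7.409 against 7.841, with overlap. The part of these cell types was not tested.

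Several of these calls were lost when a mouse was left out. In CA3, Dync1h1 lost its call without DN mouse4797, mouse4825, mouse4866 or mouse4886 or tTA mouse4570, mouse4592 or mouse4637 (-0.84 to -0.72) and Kif5c without DN mouse4797, mouse4825, mouse4866 or mouse4883 or tTA mouse4570, mouse4592 or mouse4637 (-0.43 to -0.37). Kif5c did so in CA1 without tTA mouse4592 (-0.35) and in DG without DN mouse4825 or tTA mouse4592 or mouse4637 (-0.40 to -0.39). Map7 did so in DG without DN mouse4797, mouse4866 or mouse4886 or tTA mouse4592, mouse4626 or mouse4637 (-0.44 to -0.37). In CA1, Kif21a lost its call without DN mouse4806, mouse4825, mouse4883 or mouse4886 or tTA mouse4592 (-0.48 to -0.35), Map4 without DN mouse4797 or mouse4886 or tTA mouse4570, mouse4580 or mouse4637 (-0.24 to -0.22), and Stmn3 without any but DN mouse4797 and tTA mouse4592 and mouse4626 (0.23 to 0.27). Kif1b in CA3 did so without DN mouse4797 (-0.45) or mouse4866 (-0.43), and Map6 in CA3 without any but DN mouse4866 and tTA mouse4580 (-0.56 to -0.44). In DG, Klc3 did so without tTA mouse4580 (0.45) and Kif1c without DN mouse4797, mouse4825 or mouse4886 or tTA mouse4570, mouse4580, mouse4626 or mouse4637 (0.27 to 0.34). Map1lc3a, Kif3a and Tuba1c, and Dync1h1 in CA1 and DG, kept theirs in every such fit.

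Both transgenes together were then set against none. In CA1, 9 of the 60 genes were higher and 9 lower in rTg4510 than in DN mice (12.2% and 12.5% of all genes), with medians of -0.06 and 0.03. Tubg2, a gamma tubulin, read 5.29 to 5.96 (median 5.45) in DN mice and 3.68, 4.30, 4.33, 4.53 and 4.82 in rTg4510 mice, without overlap (-1.19 ± 0.25, adjusted p = 0.0021), on a probe set that was dim in the latter. Map7 read 7.23 to 7.52 (median 7.31) against 5.64, 6.01, 6.07, 6.31 and 6.73, also apart, with -1.18 ± 0.18 between the means (2.27-fold, adjusted p = 0.00022). Dync1h1 (-0.78), Map6 (-0.71), Kif3c (-0.70), Kif3a (-0.55), Map4 (-0.54), Kif1b (-0.46) and Dynll1 (-0.28) were lower too. Map4 fell stepwise, since its DN, tTA and rTg4510 arrays in CA1 had means of 10.79 ± 0.08, 10.54 ± 0.13 and 10.25 ± 0.07 (SD, n = 6, 5 and 5).

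Higher in CA1 were Tuba1c (1.06 ± 0.17, adjusted p = 0.00029), Tubb6 (0.90 ± 0.24, adjusted p = 0.013), a beta tubulin of many non-neuronal cells, Tuba8 (0.54), Kif1c (0.47), Dynlt3 (0.45), Stmn1 (0.42 ± 0.09, adjusted p = 0.0037), Kif23 (0.39), Stmn3 (0.31) and Map1lc3a (0.30). Tubb6 in CA1 read 4.07, 4.34, 4.77, 5.41 and 5.49 in rTg4510 mice and 3.75 to 4.07 (median 3.89) in DN mice, so that the lowest rTg4510 array lay within the DN range, and both groups were dim. Of the 11 fits that left out a mouse, Dynll1 lost its call in all but those without DN mouse4806 or rTg4510 mouse4549 or mouse4600 (-0.28 to -0.21), Kif1c in those without DN mouse4806, mouse4866 or mouse4886 or rTg4510 mouse4549, mouse4600 or mouse4666 (0.40 to 0.45), and Map1lc3a in those without DN mouse4806, mouse4866 or mouse4883 or rTg4510 mouse4535, mouse4549 or mouse4600 (0.26 to 0.30). In this comparison 18 of 19 microglial and all 13 astrocytic markers were higher, as were 11 of 12 oligodendrocyte, 8 of 13 endothelial and mural and 8 of 13 interneuron markers, and the 3 CA1 pyramidal markers lower, and their part was not tested. With the Actb difference as a covariate, 16 of the 60 genes were called in CA1. Over all 22626 probe sets it took the calls from 2521 higher and 2779 lower to 2286 and 2534.

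CA3 had 4 genes higher and 1 lower in rTg4510 than in DN mice (2.14% and 1.22% of all genes): Tubb6 (0.78 ± 0.20), Tuba1c (0.64 ± 0.12), Stmn4 (0.51 ± 0.10), Map1lc3a (0.47 ± 0.12) and, lower, Dync1i1 (-0.50 ± 0.10). DG had 4 higher and none lower (4.59% and 5.24% of all genes): Map1lc3a (0.84 ± 0.15), Tuba1c (0.69 ± 0.16), Map2 (0.44 ± 0.12) and Dynlt3 (0.38 ± 0.11). Tuba1c and Map1lc3a were thus higher than in DN mice in each subfield. When a mouse was left out, Tubb6 in CA3 lost its call in every fit but that without DN mouse4886 (0.68 to 0.84), Map1lc3a in CA3 in every fit but that without rTg4510 mouse4621 (0.43 to 0.50) and Dynlt3 in DG in every fit but those without DN mouse4825 or rTg4510 mouse4653 (0.32 to 0.40). Stmn4 lost its call in CA3 without DN mouse4866 (0.47), and Map2 in DG without DN mouse4883 (0.42) or mouse4886 (0.37). The Actb covariate left 1 call in CA3 (Stmn4, 0.63) and 2 in DG (Tuba1c and Map1lc3a). Over all 22626 probe sets it took the calls from 433 higher and 272 lower to 212 and 63 in CA3. In DG it took them from 928 and 1077 to 483 and 538. The CA3 differences that lost their call were 0.74 for Tubb6, 0.57 for Tuba1c, 0.55 for Map1lc3a and -0.46 for Dync1i1, close to those without the covariate, while in DG Map2 read 0.31 and Dynlt3 0.25. Microglial and astrocytic markers were higher in rTg4510 than in DN mice in these layers too, 13 of 19 and 8 of 13 in CA3 and 11 of 19 and 11 of 13 in DG. The mean over the microglial list ranged from 5.65 to 6.13 against 4.56 to 4.82 in CA3 and from 5.76 to 6.28 against 4.72 to 5.21 in DG, and the part of these cells was not tested. Over the 9 genotype comparisons 33 of the 60 genes were never called, among them Tuba1a, Tuba1b, Tubb2a, Tubb3, Tubb4a, Tubb4b, Tubb5, Kif1a, Kif5a, Kif5b, Klc1 and Map1b. The share of all genes never called was not counted, so this number does not set the 60 genes apart. Single comparisons called from 0.796% (rTg4510 versus tTA in DG) to 24.7% (rTg4510 versus DN in CA1) of all genes.

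Genes that work with these proteins were followed as 6 further lists. Their counts between CA3 and DG of DN mice stand against 11.6% of all genes higher and 10.7% lower. Of 6 tubulin folding cofactors 2 were higher (Tbcb, 0.54, and Tbcc, 0.49), and among 7 severing and tubulin-modifying enzymes 2 were higher and 1 lower. Of these, Ttl, the ligase that restores the terminal tyrosine of alpha tubulin, was 1.52 ± 0.12 higher in CA3 (adjusted p = 4.0e-14) and the polyglutamylase subunit Ttll1 was lower in CA3 (-1.03 ± 0.20, adjusted p = 6.2e-05). Among 9 plus-end and minus-end binding proteins 3 were higher in CA3 and 1 lower (Clip2, 0.72; Clasp1, 0.46), among 12 dynactin and dynein regulators 4 were higher (Ndel1, 0.72; Dctn2, 0.50), among 9 kinesin adaptors 3 were higher and 1 lower (Mapk8ip1, 0.57; Mapk8ip2, 0.52), and among 7 doublecortin, collapsin response and tubulin polymerization proteins 2 were higher and 3 lower (Dpysl3, 1.12; Dpysl4, -0.95).

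Between rTg4510 and tTA mice in CA1 the same lists gave 1 gene higher, the plus-end polymerase Ckap5 (0.52 ± 0.13, adjusted p = 0.018), and 5 lower, where 6.23% of all genes were higher and 5.4% lower. These were Tbcb (-0.29), the dynein regulators Pafah1b1 (-0.93 ± 0.28, adjusted p = 0.045) and Ndel1 (-0.51 ± 0.12, adjusted p = 0.010), the minus-end kinesin Kifc2 (-0.93 ± 0.18, adjusted p = 0.0040) and Crmp1 (-0.98 ± 0.21, adjusted p = 0.0067), which binds tubulin dimers. Pafah1b1 was dim in CA1 in all 3 genotypes, with means of 3.145 in rTg4510, 4.075 in tTA and 3.383 in DN mice. The severing and modifying enzymes had no call in limma in this comparison. CA3 had no call in any of the 6 lists (0.618% of all genes higher, 0.542% lower), and DG had 1 (0.423% and 0.373%). It was Kifap3, the accessory subunit of the kinesin-2 motor of Kif3a and Kif3b (0.39 ± 0.07, adjusted p = 0.024). Kifap3 was also lower in tTA than in DN mice in CA1 (-0.44), CA3 (-0.47) and DG (-0.41). Others lower in tTA mice included Camsap1 (-1.02), Tbcd (-0.88) and Ttll1 (-0.77) in CA1, Clip1 (-0.49) in CA3 and Agtpbp1 (-0.46) in DG, while Nde1 was higher in DG (0.96). These are examples. Between tTA and DN mice 7.94% of all genes were higher and 8.52% lower in CA1, 4.41% and 4.59% in CA3, and 7.98% and 9.49% in DG. The Actb covariate and the fits without 1 mouse were not followed for the 6 lists, so how far these calls depend on them was not tested.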

How the data were processed

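Cell layers of CA1, CA3 and DG were captured by laser from frozen sections of 17 mice, and RNA was amplified, labelled and hybridised to Affymetrix HT-MG-430A arrays. The authors normalized the scans with RMA and deposited log2 values, 22716 probe sets on 49 arrays. Per the labels, RMA was the processing tool. Its version was not given in the sources used here. Of the table, 90 control probe sets were left out and 22626 tested, without a filter on dim values. Arrays have no read depth, and the number of mice limits the precision. A platform table gave 18003 probe sets 1 symbol, 287 several and 4336 none.

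Genotypes were compared within each subfield with limma 3.58.1 (R 4.3.3), and subfields and differences of responses in a model of 9 groups with the mouse as a random block (duplicateCorrelation, statmod 1.5.0). The mouse number pairs the arrays of 1 animal. Deviations from the group means correlated by a median of 0.119 over 47 same-mouse pairs (-0.148 to 0.323, 27 above 0.1; -0.00146 between mice), and the consensus within-mouse correlation was 0.117. All p-values are two-sided, and no 2 arrays of a group were identical.

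The genes, gene lists and tests were chosen with earlier results of these data known. Named in each comparison were the called genes, at most 10 per direction by absolute difference, some neuronal genes whether called or not, the 3 of smallest adjusted p where none was called and, of the 6 other lists, 2 called genes each. Further called genes, such as Kif1b and Tubb5 between CA3 and DG, and the promoters shown were picked after their values were seen. Every array value was given for genes called between rTg4510 and tTA mice. Alternatives were a filter on dim probe sets, a second quantile normalization, array weights, the mean of a gene's probe sets, fits of 2 genotypes only, the methods' least significant difference test on log2 values, no mouse block, leaving out each mouse and, added after seeing the data, the Actb 3′ to 5′ difference as a covariate, the layer comparisons in tTA and rTg4510 mice and shares over genes that were not dim. The scripts were tested on simulated data.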

Additional observations from a re-analysis of the deposited data

Results flagged for a closer look

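The response to the tau transgene (rTg4510 minus tTA) was tested for a difference between subfields and passed for 6 results. Between CA1 and CA3 it differed for Stmn1 (0.39), Kif3b (-0.84) and Map4 (-0.33), and between CA1 and DG for Tuba8 (0.97), Tuba1c (0.84) and Map1lc3a (-0.73), all as log2 differences of differences. The response to the transactivator (tTA minus DN) differed between DG and CA3 for Stmn2 (0.81).

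Of 72 groups of 5 or 6 arrays, for the 8 genes called between rTg4510 and tTA mice, 2 held an array far from the others by Dixon's test, and chance alone would give such an array in about 1 of 20 groups. The Map1lc3a value of rTg4510 mouse4653 in DG was 6.37 and the next lowest was 6.84. The Dynlt3 value of tTA mouse4592 in CA3 was 10.75 and the next lowest was 11.05.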

How the results depend on the processing

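Values of 226 pairs of gene and comparison were recomputed under the alternatives, 2872 values in all. None changed sign, 2472 kept their call and 400 did not, and 123 of the pairs kept their call in every alternative run. Of 321 recomputed counts of called genes 263 stayed within 1.5 times the count reported. Between rTg4510 and tTA mice in CA1, where 8 genes were called, array weights gave 5, fits of both genotypes alone 3, the Actb covariate 5 and fits without 1 mouse 4 to 10. In CA3 fits without 1 mouse gave 0 to 1, and in DG they gave 0 to 2, while the filter on dim probe sets and a second quantile normalization each called Klc4 (1 gene). Between tTA and DN mice the Actb covariate gave 1 in CA1, 5 in CA3 and 1 in DG, fits without 1 mouse gave 4 to 10 in CA3, and the mean of a gene's probe sets gave 15 in DG. Between rTg4510 and DN mice the least significant difference test gave 3 in CA3, the Actb covariate 1 in CA3 and 2 in DG, and fits without 1 mouse 2 to 7 in CA3 and 2 to 6 in DG. Array weights gave 23 genes between CA1 and DG of DN mice, in place of 14. For the response to tau, fits without 1 mouse gave 1 to 5 genes for CA1 minus CA3 and 2 to 5 for CA1 minus DG. For the response to the transactivator, DG minus CA1 had 1 with the filter on dim probe sets, 2 with array weights and 0 to 1 without 1 mouse, and DG minus CA3 had 0 to 1. The causes were not tested.

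Without the replicate block, that is, without the mouse as a block, 16, 12 and 27 genes were called between the DN layers (CA1 and CA3, CA1 and DG, CA3 and DG), 1 and 3 for the tau response (CA1 minus CA3, CA1 minus DG), and 0 and 0 for the transactivator response (DG minus CA1, DG minus CA3). Genotypes within a subfield share no mice, so no block applies there.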
